A study of Homo sapiens with 2 samples.

Results

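The Hippo pathway controls growth through a kinase cascade, in which STK3 and STK4 activate LATS1 and LATS2, and the LATS kinases phosphorylate the transcriptional coactivators YAP1 and TAZ (the product of WWTR1) and keep them out of the nucleus. In the nucleus both coactivators bind DNA through the TEAD transcription factors, and the genes they switch on include matrix and signalling proteins as well as their own inhibitors LATS2 and AMOTL2. In carcinoma cell lines this output is known to respond to cell density, matrix stiffness and growth factor signalling. The 10 genes described here are the coactivators YAP1 and WWTR1, the DNA-binding partners TEAD1 and TEAD4, the inhibitors LATS2 and AMOTL2, and the targets CCN1, CCN2, ANKRD1 and THBS1, out of 18377 genes on the arrays. They were listed by name, a list drawn up with earlier results of these data known, and each was measured by 1 probe set annotated to that gene alone.

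EBC1 is an established cell line from a human squamous carcinoma of the lung, and it carries an amplified MET gene, whose product is the receptor for hepatocyte growth factor. The subline EBC1-R was selected from EBC1 in rising concentrations of the MET inhibitor PHA-665752 and was kept in medium with 3 µM inhibitor, so lasting resistance and present drug exposure cannot be told apart. Whether the parental cells carried inhibitor or vehicle is not stated in the labels, nor whether EBC1-R is a clone or a pool of surviving cells. The study compared the lines, with 1 array of each, to look for mechanisms of resistance. With 1 array per group there is no replicate error and no test, so every value below is a single measurement, and p-values are not given. Values are intensities taken as log2 from their range, differences are EBC1-R minus EBC1, and a difference of 1 is 2-fold.

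The parental line and the resistant line had similar MET values, 13.17 and 13.21, while the efflux pump gene ABCB1 named in the study's title went from 5.37 to 12.65. All 6 epithelial markers lay between 11.25 and 12.83 on both arrays, with the keratins KRT8, KRT18 and KRT19 lower in EBC1-R (differences of -0.83, -0.78 and -0.89). Of the squamous markers, 4 of 6 were measured (KRT5, KRT14, DSG3 and SOX2) and none reached 7.41. That value, the median over all genes of the higher of a gene's values, is used here as the level filter. Of 9 fibroblast markers 1 reached it (COL1A1, 7.64 and 7.61), and the list spanned 4.54 to 7.64 on the EBC1 array and 4.56 to 7.61 on the EBC1-R array. None of 6 endothelial and none of 6 measured leukocyte markers reached it. These arrays have no detection calls, so whether a low value exceeds background is not known.

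Of the 10 genes, 2 were at least 2-fold higher in EBC1-R (THBS1 and ANKRD1), 1 was at least 2-fold lower (WWTR1) and 7 differed by less. Over all genes on the arrays 1.26% were higher and 0.887% lower by that much. Among the 9189 genes above the level filter, which all 10 passed by their higher value and 9 by both values, the shares were 2.13% and 1.67%. The direction was split, with 5 of the 10 higher and 5 lower, while 43.3% of all genes were higher. Their median difference was 0.00057, against -0.03 over all genes. The median size of the difference, without its sign, was 0.35 for the 10 and 0.21 for genes above the level filter. The larger differences of the set lay on opposite sides. At a threshold of 1.5-fold, 2 of the 10 were higher (4.41% of all genes were) and 2 lower (3.16%). At 3-fold, 1 was higher (0.354%) and 0 lower (0.196%).

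**Figure D1:**
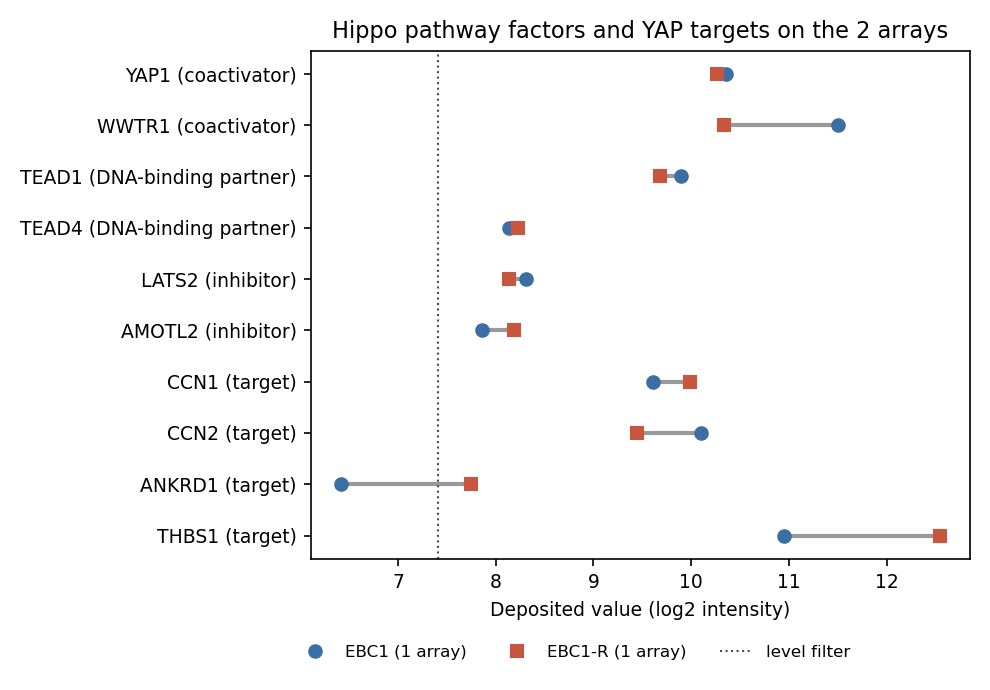
Deposited log2 intensity (horizontal axis) of each gene on the EBC1 array (circles) and the EBC1-R array (squares), 1 array each, with a line joining both values and a dotted line at the level filter of 7.41. The joining lines are long for WWTR1, ANKRD1 and THBS1, and only ANKRD1 starts below the filter.

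The coactivators differed from each other in how far they moved. YAP1 was 10.36 in EBC1 and 10.27 in EBC1-R (-0.09, 1.06-fold lower). WWTR1, which encodes TAZ, was 11.51 in EBC1 and 10.34 in EBC1-R (-1.17, 2.25-fold lower). The differences of WWTR1 and YAP1 thus lay apart by 1.08 on the log2 scale, 2.11-fold. Of all genes, 0.528% were lower in EBC1-R by at least as much as WWTR1, which ranked 97th among decreases. For YAP1 that share was 38.8%. Probe sets of the same gene on these arrays differed with a pooled SD of 0.16 (374 genes above the level filter with several probe sets). That SD describes agreement within this pair of arrays and not between cultures. The YAP1 difference was smaller than it and the WWTR1 difference larger.

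The TEAD factors, which bind DNA for both coactivators, had small differences. TEAD1 was 9.90 in EBC1 and 9.68 in EBC1-R, 1.16-fold lower. TEAD4 was 8.14 in EBC1 and 8.23 in EBC1-R, 1.07-fold higher and under the SD between probe sets. The family members outside the set were of like size: TEAD2 went from 8.97 to 8.64 and TEAD3 was 8.10 on both arrays. Among the vestigial-like cofactors, which also bind TEAD factors, VGLL4 was above the level filter and went from 8.10 to 8.48, 1.30-fold higher. VGLL1, VGLL2 and VGLL3 lay between 5.32 and 6.03 on both arrays. No TEAD or VGLL gene differed 2-fold, and over all genes only 2.14% did.

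The inhibitors that are themselves switched on by YAP and TAZ moved in opposite directions by small amounts. LATS2, a kinase that phosphorylates both coactivators, was 8.31 in EBC1 and 8.14 in EBC1-R, 1.12-fold lower. Its difference of -0.17 was close in size to the SD between probe sets, and 25.4% of genes were at least as far down. AMOTL2, an angiomotin family scaffold that holds YAP at cell junctions, was 7.86 in EBC1 and 8.19 in EBC1-R, 1.25-fold higher. For AMOTL2, 11.8% of genes were at least as far up. The paralogs AMOT (5.64 and 5.69) and AMOTL1 (5.82 and 5.69) were under the level filter on both arrays.

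The 4 targets did not move together. THBS1 encodes thrombospondin, a secreted matrix glycoprotein that activates latent TGF-beta. It was 10.95 in EBC1 and 12.54 in EBC1-R, higher by 1.59 or 3.02-fold. It ranked 65th among increases over all genes, with 0.354% of genes at least as far up. ANKRD1, a nuclear and sarcomeric ankyrin repeat protein widely used as a YAP reporter gene, was 6.42 in EBC1 and 7.75 in EBC1-R, higher by 1.33 or 2.51-fold. Its EBC1 value was under the level filter, and 0.588% of genes were at least as far up. Both of these targets were thus higher in the resistant line, THBS1 from a level above the filter and ANKRD1 from below it.

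The CCN genes encode cysteine-rich secreted matricellular proteins and are the other common readouts of YAP activity. CCN1 was 9.61 in EBC1 and 9.99 in EBC1-R, 1.30-fold higher, and 9.48% of genes were at least as far up. CCN2 was 10.11 in EBC1 and 9.45 in EBC1-R, 1.58-fold lower, and 2.47% of genes were at least as far down. The differences of CCN1 and CCN2 lay apart by 1.04 on the log2 scale, 2.05-fold, with opposite signs. THBS1 and CCN2 lay farther apart, by 2.25 or 4.76-fold. CCN2 and WWTR1 were the 2 genes lower by at least 1.5-fold. The remaining CCN genes did not differ 2-fold: CCN3 was 7.89 and 7.87, CCN4 6.18 and 6.06, CCN5 7.35 and 7.67, and CCN6 5.36 and 5.30 in EBC1 and EBC1-R.

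**Figure D2:**
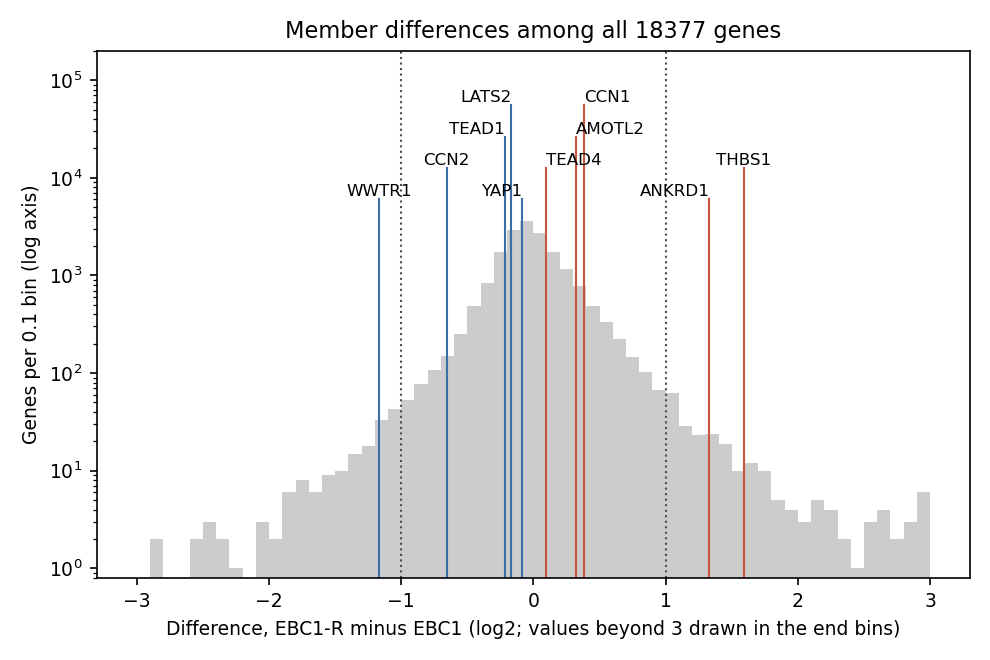
Histogram of the difference EBC1-R minus EBC1 (log2, horizontal axis) over all 18377 genes in bins of 0.1 (vertical axis, number of genes, logarithmic), with vertical lines at the 10 genes and dotted lines at 2-fold. THBS1 (1.59), ANKRD1 (1.33) and WWTR1 (-1.17) lie beyond 2-fold and the other genes inside it.

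Promoter sequence was set beside these values because the targets share a binding partner but not a direction. TEAD factors recognise a core of GGAATG, which was searched on both strands (as CATTCC on the reverse) in RefSeq promoters of 300 bases, 250 before and 50 after the transcription start (GRCh38.p14). Promoters were matched by symbol for 7 of the 10 genes, and TEAD1, TEAD4 and CCN1 had no entry. Of the 7, 6 held the core in at least 1 promoter, and 2 held it more than once. Of 27305 genes in the promoter table, 16.7% held it at least once and 1.70% more than once. Several of the 10 genes are known for such sites, so this count is a description of the chosen genes. The bases before the start are shown for the target that was lower, both that were at least 2-fold higher, and the inhibitor AMOTL2, each in the direction of transcription with the core in capitals.
CCN2 (chr6:131951373-131951622, minus strand): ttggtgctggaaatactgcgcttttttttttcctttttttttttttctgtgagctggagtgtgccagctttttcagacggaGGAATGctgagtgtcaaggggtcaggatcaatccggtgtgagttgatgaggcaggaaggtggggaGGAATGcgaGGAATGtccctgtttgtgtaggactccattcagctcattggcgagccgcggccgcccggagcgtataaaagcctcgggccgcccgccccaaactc
ANKRD1 (chr10:90921088-90921337, minus strand): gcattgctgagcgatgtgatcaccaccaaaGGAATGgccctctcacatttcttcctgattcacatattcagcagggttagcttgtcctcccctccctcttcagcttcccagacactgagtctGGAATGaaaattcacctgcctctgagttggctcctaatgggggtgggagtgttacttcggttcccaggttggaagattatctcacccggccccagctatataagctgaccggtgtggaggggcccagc
THBS1 (chr15:39580829-39581078, plus strand): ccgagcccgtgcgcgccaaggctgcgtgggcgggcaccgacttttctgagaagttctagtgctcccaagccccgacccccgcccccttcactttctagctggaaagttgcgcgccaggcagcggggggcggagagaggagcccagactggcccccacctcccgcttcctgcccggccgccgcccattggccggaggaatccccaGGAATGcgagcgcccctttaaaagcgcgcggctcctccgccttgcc
AMOTL2 (chr3:134374448-134374697, minus strand): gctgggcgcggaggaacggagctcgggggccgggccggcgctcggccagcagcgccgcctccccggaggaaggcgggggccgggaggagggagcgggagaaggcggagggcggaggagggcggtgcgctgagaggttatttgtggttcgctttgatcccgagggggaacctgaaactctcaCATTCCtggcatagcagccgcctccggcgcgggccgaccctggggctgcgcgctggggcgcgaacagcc

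CCN2, 1.58-fold lower, held 3 cores, whose first bases lay 169, 104 and 95 bases before the start. ANKRD1, 2.51-fold higher, held 2, at 220 and 128 bases before the start. THBS1, 3.02-fold higher, held 1 at 46 bases, and AMOTL2, 1.25-fold higher, held 1 on the reverse strand at 69 bases in the promoter shown and none in its other promoter. YAP1 held 1 at 162 bases before its start, and in LATS2 the core began 9 bases after the start. Neither of the WWTR1 promoters held the letters in this window. Of these genes, the one with most cores was lower and the target with the largest increase held 1. CCN1 had no entry, sites outside the window were not searched, and a relation of cores to direction was not tested. A match is a run of letters and shows no binding in these cells.

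**Figure D3:**
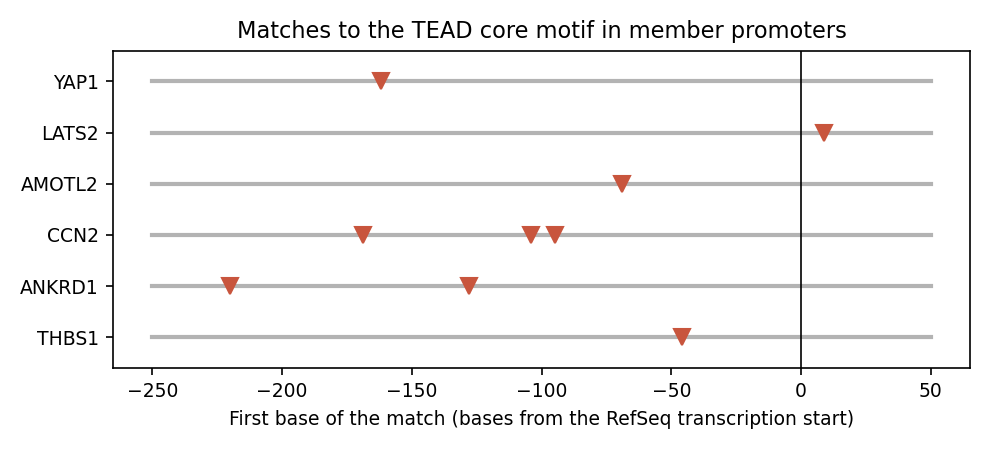
Position of matches to the TEAD core (triangles, first base of the match) along the RefSeq promoter window of each gene with a match, in bases from the transcription start (horizontal axis, start at 0). CCN2 has 3 matches and ANKRD1 has 2, and the match of LATS2 lies after the start.

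The rest of the pathway was compared through lists of genes. Of 18 listed genes of the Hippo kinase core and related kinases 16 were measured, and none differed 2-fold. Over all genes 2.14% did, so none in a list this small lies near that share. In that list 6 were higher and 10 lower, with a median difference of -0.10, against -0.03 over all genes. The largest difference above the level filter was in MAP4K4, a kinase that can phosphorylate LATS kinases in parallel to STK3 and STK4. It went from 10.67 to 9.82, 1.80-fold lower. STK38, a LATS-related kinase, was 1.49-fold higher (10.00 to 10.57), the LATS cofactor MOB1B 1.24-fold lower and the kinase TAOK3 1.22-fold higher. The central kinases STK3 (-0.12), STK4 (-0.10) and LATS1 (-0.10), named after their values were seen, differed by less than the SD between probe sets.

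Of 48 listed upstream regulators and scaffolds 44 were measured, 15 higher and 28 lower, with a median of -0.06. FAT4, an atypical cadherin upstream of the pathway, was the 1 member at least 2-fold different, 2.27% of those measured against 2.14% of all genes. It was 7.45 in EBC1 and 8.54 in EBC1-R, 2.14-fold higher. AJUBA, a LIM protein that restrains LATS kinases, went from 8.31 to 9.16, 1.80-fold higher. FAT1, another atypical cadherin, and the phosphatase PTPN14, which binds YAP, were each 1.40-fold lower. Apart from these, levels of the regulators were close on both arrays, within 1.5-fold for each member above the level filter. PTPN14, AJUBA and FJX1 are also in the target lists.

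Other YAP and TAZ target genes also went both ways. A signature of YAP targets without CCN1, CCN2, ANKRD1, LATS2 and AMOTL2 held 17 genes, all measured, of which 3 passed 2-fold upward and 1 downward. Over all genes 1.26% were higher and 0.887% lower by that much. The median of the signature was -0.02, with 7 higher and 9 lower. CCDC80, a secreted matrix protein, went from 7.41 to 10.47, 8.30-fold higher. IGFBP3, which binds insulin-like growth factors, went from 8.09 to 10.70, 6.10-fold higher, and the ligand TGFB2 from 9.32 to 10.38, 2.08-fold higher. NT5E, the ecto-nucleotidase CD73, went from 11.46 to 10.12, 2.55-fold lower.

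A further 20 targets named in studies of YAP or TAZ had 18 measured, 6 higher and 12 lower, with a median of -0.34. JAG1, a Notch ligand, went from 11.16 to 9.60, 2.95-fold lower. FOSL1, an AP-1 subunit, went from 11.50 to 10.07, 2.71-fold lower, and the transglutaminase TGM2 from 11.63 to 10.24, 2.62-fold lower. BMP4, a bone morphogenetic protein, was 2.28-fold lower, and FSTL1, a secreted follistatin-like protein, was 2.76-fold higher from 6.12. Over both target lists, 35 measured genes without overlap, 4 passed 2-fold upward and 5 downward, 25.7% of them in all. Of all genes, 2.14% were at least 2-fold different either way. The 25.7% is a share of all 35, whatever their level. Among genes of the arrays above the level filter, 2.13% were higher and 1.67% lower by 2-fold. Of the 35, 26 passed this filter by their higher value, and the 9 genes past 2-fold were among them. FSTL1, F3 and EDN1 passed it in EBC1-R only, and INHBA and NRG1 in EBC1 only. Both lists were chosen with earlier results of these data known, so their share describes the chosen genes. The targets outside the 10 genes were divided between higher and lower, as were THBS1, ANKRD1, CCN1 and CCN2. Of the 35, 37.1% were higher in EBC1-R, against 43.3% of all genes, so such a division is not particular to these targets. Many of these genes are also switched on by other pathways, and the part of YAP and TAZ in any of these differences was not tested. Serum response factor and actin genes, which share several targets with YAP, had a median of -0.12, against -0.03 over all genes. Of 17 measured members 1 was 2-fold different, 5.88% against 2.14% of all genes. That member was the immediate early factor EGR1 (11.67 to 10.67), which only just passed the threshold. EGR1 ranked 163rd among decreases, and 163 genes on the arrays were at least 2-fold lower.

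**Figure D4:**
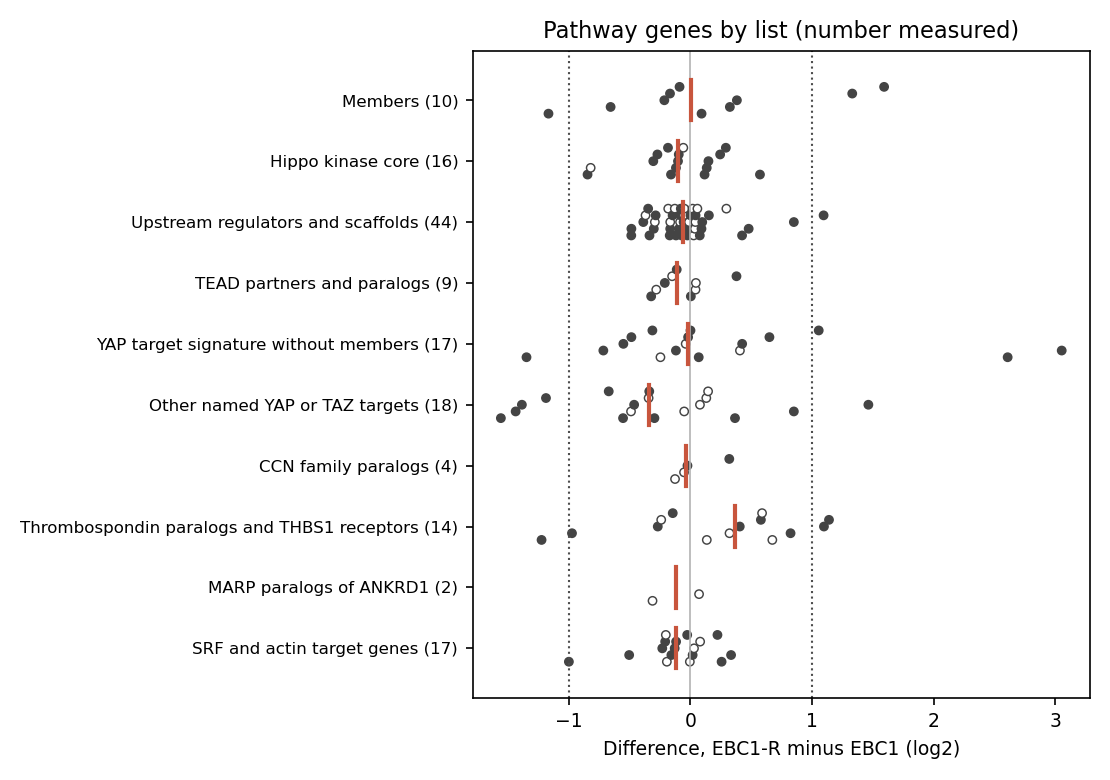
Difference EBC1-R minus EBC1 (log2, horizontal axis) of each measured gene (points) in the 10 genes and in 9 other lists, with filled points for genes above the level filter, open points for genes below it, red bars at list medians and dotted lines at 2-fold. The kinase core, TEAD, CCN and ANKRD1 paralog lists, each small, stay within 2-fold, as do most genes on the arrays. Both target lists spread to either side.

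The family and the receptors of THBS1 were measured as well. The other thrombospondins did not differ 2-fold: THBS2 was 5.80 and 5.56, THBS3 7.32 and 7.73, THBS4 6.59 and 6.91, and COMP 6.33 and 6.47 in EBC1 and EBC1-R. Of the receptors and binding partners, the integrin subunit ITGAV was 2.14-fold higher (10.16 to 11.25) and calreticulin, CALR, 2.20-fold higher (10.97 to 12.11). The heparan sulfate proteoglycan SDC1 was 2.34-fold lower (10.75 to 9.52) and the laminin-binding subunit ITGA6 1.97-fold lower (11.43 to 10.46). CD47, a receptor for the carboxyl end of thrombospondin and named after its value was seen, went from 10.59 to 11.41. Of the 14 measured genes in this list, 9 were higher and 5 lower, with a median of 0.36. Over all genes 43.3% were higher and the median was -0.03. At least 2-fold different were 3 of the 14, 21.4% against 2.14% of all genes, and 9 passed the level filter. This list too was chosen with earlier results of these data known, so its counts describe the chosen genes. The ankyrin repeat paralogs of ANKRD1 were under the level filter on both arrays, ANKRD2 at 7.07 and 6.76 and ANKRD23 at 6.75 and 6.82.

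Chromosomal neighbours were also set beside each gene. The 5 measured genes on either side in RefSeq order gave 100 neighbours, of which 3 were 2-fold or more higher and 2 lower. Over all genes those shares were 1.26% and 0.887%. The counts are small, and whether they differ from these shares was not tested. WWTR1 on chromosome 3 had no neighbour 2-fold different, and their differences lay between -0.25 (TM4SF1) and 0.68 (PFN2) with a median of 0.04. CCN2 on chromosome 6 lay next to ENPP1 (9.82 to 7.30, 5.76-fold lower), with ENPP3 beyond it (6.58 to 5.17, 2.66-fold lower and under the level filter), while MOXD1 and STX7 on its other side differed by -0.20 and 0.55. ANKRD1 on chromosome 10 had 1 such neighbour, PPP1R3C, which encodes a glycogen-targeting phosphatase subunit, at 3.94-fold higher (6.86 to 8.84). Between them NUDT9P1 was 1.35-fold higher, PCGF5 was 1.48-fold higher and HECTD2 differed by -0.03.

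THBS1 on chromosome 15 also had 1, BMF, a gene that promotes apoptosis, at 2.40-fold higher (6.77 to 8.04), with FSIP1 (-0.04), GPR176 (0.47, 1.38-fold higher), EIF2AK4 (-0.10) and SRP14 (-0.07) between them. YAP1 on chromosome 11 lay near MMP7, a matrix protease gene, at 3.37-fold higher (5.96 to 7.72), whereas BIRC2 and TMEM123 between them were 1.04-fold and 1.01-fold higher. TEAD4 on chromosome 12 lay beyond FOXM1, which was 1.42-fold lower, and none of its neighbours differed 2-fold. LATS2, AMOTL2, TEAD1 and CCN1 had no neighbour 2-fold different. PPP1R3C, BMF and MMP7 were under the level filter in EBC1, and ENPP1 was under it in EBC1-R, so each of these folds rests on a low value.

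**Figure D5:**
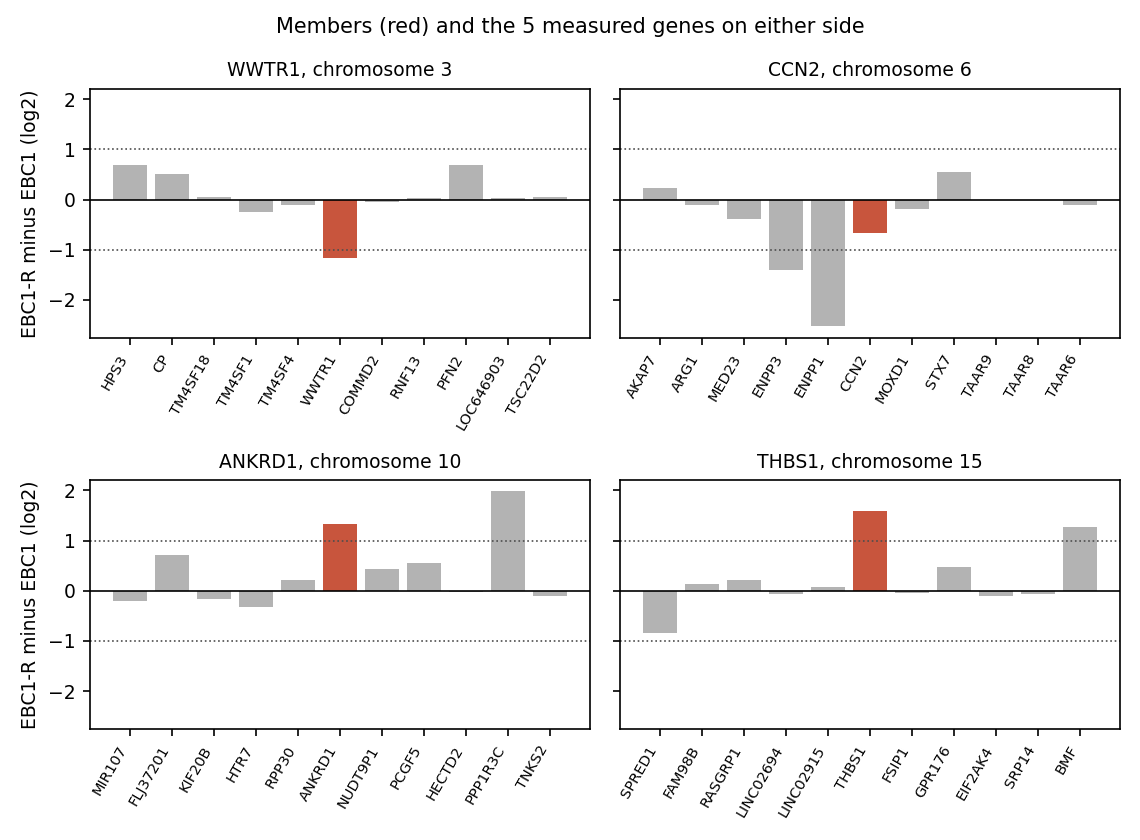
Difference EBC1-R minus EBC1 (log2, vertical axis) of WWTR1, CCN2, ANKRD1 and THBS1 (red bars) and of the 5 measured genes on either side in chromosomal order (grey bars, gene order and not distance), with dotted lines at 2-fold. ENPP1 and ENPP3 are lower beside CCN2 (-2.53 and -1.41), and no neighbour of WWTR1 reaches 2-fold.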

How the data were processed

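Values are those the authors deposited, 1 per probe set and array, taken as log2 intensities from their range (4.21 to 14.2). How the arrays were background-corrected, summarised and scaled, and the log base, is not given in these sources. Array medians were 6.73 and 6.71, and sorted columns differed by at most 0.17, and whether a change shared by most genes was scaled away before deposit is not known. Per the labels' protocols, 100 ng of total RNA was labelled with biotin by a whole-transcript method. The labels name an older array design, but the 28869 probe sets match the annotation of a whole-transcript gene array.

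Of the probe sets, 19310 carried 1 symbol and gave 18377 genes, averaging probe sets. Symbols were looked up by gene ID in RefSeq (19279 found). Gene order came from RefSeq (GRCh38.p14). No probe set naming several genes named any of the 10. Differences were computed with Python 3.11.15 and pandas 2.3.3. Counting was tested on simulated data. The genes and lists were chosen with earlier results of these data known. Named genes were the 10, their families, list genes at least 2-fold different above the level filter, and neighbours at least 2-fold different. Genes among the 4 farthest of a list above the filter were mostly named too. MYH9 (1.42-fold lower), CNN2, MRTFB, RUNX1, RUNX2 and KRT7 met that rule and were left out. Some neighbours under 2-fold, such as FOXM1, were named, whereas PARP11 near TEAD4 (1.71-fold higher) was not. Alternatives covered scaling, a pseudocount, the probe set rule, level filters and thresholds. Array number limits the precision.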

Additional observations from a re-analysis of the deposited data

How the results depend on the processing

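No paired analysis was possible because each line has 1 array. The counts past 2-fold (2 higher, 1 lower), and the sign of all 10 differences, were the same after quantile normalization, median centring, subtraction of the lowess trend of difference on mean intensity (span 0.2), adding 16 to the linear values as a pseudocount, the brightest probe set of each gene, and the addition of probe sets naming several genes. The last 2 of these could not move any value. Each gene has 1 probe set, and no probe set naming several genes named any of the 10. The largest move in a difference was 0.14, for ANKRD1, which ranged from 1.19 (pseudocount) to 1.37. WWTR1 ranged from -1.17 to -1.15 and THBS1 from 1.58 to 1.62. A level filter of 8 left 1 gene at least 2-fold higher, since ANKRD1 is below it on both arrays. At 1.5-fold, 2 genes were lower, and at 3-fold, 1 was higher and 0 lower. The median of all genes moved by under 0.1 under each scaling. The median difference of the 10 genes, 0.00057 as deposited, did not keep its sign. It was -0.0057 after quantile normalization, -0.0013 with the pseudocount and -0.09 at a level filter of 8. Without replicates, a value counted as moved when it changed by more than the SD between probe sets (0.16). Low intensities, such as ANKRD1 in EBC1, limit how far a fold can be read.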
